A study of Canis lupus familiaris with 26 samples.

Results

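Maturation of the canine corpus luteum (CL) was followed in dogs under inhibition of cyclooxygenase 2 (COX2). The comparison was made inside the treated animals, between CL from days 20 and 30 (6 samples) and CL from days 5 and 10 (7 samples). All 13 treated samples of the series were used, and the remaining 13 of the 26 samples were controls. Treated bitches received 10 mg/kg of firocoxib (Previcox), a selective COX2 inhibitor, by mouth each day from ovulation until surgery. Ovulation, or day 0, was set by the rise of circulating progesterone. Treated CL came from 4 bitches on day 5 and from 3 bitches each on days 10, 20 and 30, and control CL were collected in the same numbers on the same days. Controls were given a placebo, although the series design calls them untreated. The bitches were of mixed breed and of various ages, came into estrus spontaneously, and gave 1 library each. Whole CL tissue was sequenced, so that fewer cells of a type and less RNA per cell cannot be told apart. Between 14604330 and 21960531 reads per treated sample were assigned to genes, with a median of 19432693 on days 5+10 and of 16189497 on days 20+30. Levels below are CPM, a gene's reads per 1000000 reads counted in the sample, scaled with edgeR's TMM factors. They are not divided by gene length, so that a gene called the most counted of a group has the most reads, which depends on its length as well as on its RNA level.

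The CL forms from the ruptured follicle and secretes progesterone. While it forms, granulosa and theca cells luteinize, vessels grow into the tissue, and matrix is laid down and remodeled. The mature gland imports or makes cholesterol and converts it into steroid. COX2, encoded by PTGS2, makes the precursor of the prostaglandins, from which downstream enzymes make PGE2, PGF2alpha and prostacyclin. In the dog, PGE2 is known as a luteotropic signal of the young CL. Firocoxib blocks the enzyme and not its transcript, so PTGS2 mRNA does not measure inhibition.

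The target and the identity of the tissue were looked at before the comparison. PTGS2 (ENSCAFG00000013762) lay between 11.7 and 154 CPM (median 80.2) in the treated samples of days 5+10 and between 2.90 and 71.1 CPM (median 11.4) in those of days 20+30. The groups overlapped, and the change did not pass the test (log2 fold change -1.97, SE 0.78, edgeR FDR = 0.183), while it did in controls (log2 fold change -3.19, SE 0.59, edgeR FDR = 0.00283). The difference between these changes was not significant (edgeR interaction FDR = 0.889). Without day 20 replicate 4 the treated log2 fold change of PTGS2 was -2.82, and 1 of 15 alternatives called its treated change. Of 5 markers set for luteal steroidogenic cells, PRLR, the prolactin receptor, had a symbol. It lay between 88.4 and 259 CPM (median 200.4) on days 5+10 and between 96.3 and 282 CPM (median 183) on days 20+30, above 0 in every treated sample, and its change was 0.06 on the log2 scale (edgeR FDR = 0.927). The 2 mature days differed, with PRLR at 96.3 to 173 CPM on day 20 and at 193 to 282 CPM on day 30. This difference was not tested. The other 4 markers were not analysed here.

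Several treated libraries, 2 of them from day 20, stood apart from their stage, and the counts of gene groups that moved without day 20 replicate 2 or 3 are given beside the groups. Day 20 replicate 2 had the lowest mean correlation of log2 CPM with the other treated samples of its stage (0.801), followed by day 5 replicate 1 (0.836, against its own stage) and day 20 replicate 3 (0.846). In day 20 replicate 3, FDX1, the ferredoxin that passes electrons to mitochondrial steroidogenic enzymes, was at 38.0 CPM, against at least 662 CPM in the other 5 mature treated samples. The summed level of 4 endothelial markers, of which VWF was the most counted, was 242 CPM in this sample, 1293 and 956 CPM in the other day 20 samples and between 506 and 1005 CPM on day 30. The summed level of 5 oocyte markers, led by BMP15, was 147, 255 and 202 CPM in the day 20 treated samples (replicates 2, 3 and 4), between 5.93 and 127 CPM on day 30, and between 4.14 and 90.8 CPM on days 5+10. The share of reads on cytosolic ribosomal protein genes was 7.57%, 7.75% and 5.43% in the 3 day 20 samples and between 3.66% and 4.22% on day 30. None of these oocyte markers was at 0 in all treated samples, and 3 treated samples had a 0 for at least 1 of them. Of the 55 treated DEGs named below, 29 had an FDR below 0.05, and 24 of these were called whichever of the 13 treated samples was left out. All of the 26 with an FDR of 0.05 or more lost the call without at least 1 sample, 19 of them without day 20 replicate 3. The part of other ovarian cells in the results below was not tested.

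Between days 5+10 and days 20+30 of treatment, 639 of 13747 genes tested (4.65%) were differentially expressed genes (DEGs; P under 0.01 and FDR under 0.1 in edgeR's quasi-likelihood test). Of these, 212 rose (1.54% of the genes tested) and 427 fell (3.11%). The median log2 fold change was 2.22 for the rising and -1.89 for the falling DEGs. At an unadjusted P under 0.05, 2698 genes (19.6%) differed. For 154 of the 639 DEGs, no sample of one stage reached the range of the other (33 rising, 121 falling), compared with 178 of all genes tested (1.29%; 0.335% with higher and 0.96% with lower mature values). In controls 6.14% of the genes tested had no overlap. In controls the same test called 2774 of 13503 genes (20.5%), 1369 rising and 1405 falling. The separation of the stages over the 2000 genes of highest variance, as the Euclidean distance between their mean log2 CPM, was 70.9 in treated samples (exact permutation test over 1716 assignments, one-sided for a larger distance, p = 0.00291) and 73.7 in controls (exact permutation p = 0.000583, the smallest these assignments can give). These 2 distances rest on different genes and were not tested against each other.

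The number of treated DEGs depended on single dogs. It was 1989 without day 20 replicate 2 and 1672 without this sample and day 5 replicate 1. Without other single samples it fell to 379 (day 5 replicate 1), 228 (day 5 replicate 2), 305 (day 5 replicate 5), 381 (day 20 replicate 3), 312 (day 20 replicate 4), 192 (day 30 replicate 2), 189 (day 30 replicate 4) and 151 (day 30 replicate 5).

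**Figure D1:**
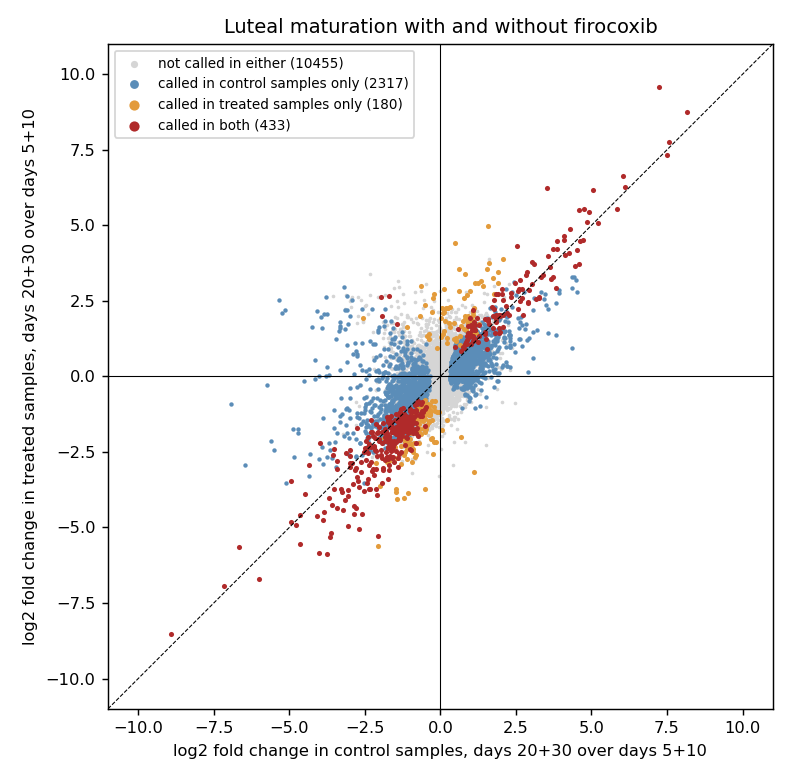
Each point is 1 of the 13385 genes tested in both sets of samples, with its log2 fold change of days 20+30 over days 5+10 in control (x axis) and treated samples (y axis), colored by where it was called a DEG; the dashed line marks equal change. Of the 433 genes called in both, 429 lie in the lower left or upper right quadrant, and 2317 genes were called in control samples only.

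The falling genes with the smallest P and no overlap between the stages were L1CAM, GFPT2, MYO7B, PTPRN and ADRA2A. L1CAM (ENSCAFG00000019362), a cell adhesion molecule, lay between 29.9 and 191 CPM (median 99.5) on days 5+10 and between 0.706 and 3.73 CPM (median 2.85) on days 20+30 of treatment. Each of the 6 mature samples, day 20 included, was below every early sample, and L1CAM fell (log2 fold change -5.17, SE 0.54, edgeR FDR = 0.000968). GFPT2, which encodes an enzyme that feeds the hexosamine pathway, lay between 619.7 and 3424 CPM (median 1055) early and between 79.6 and 195 CPM (median 133) late (log2 fold change -3.57, SE 0.44, edgeR FDR = 0.00265). Every mature sample was thus below every early one, and in controls GFPT2 fell as well (log2 fold change -2.91, SE 0.38, edgeR FDR = 0.000372). MYO7B, an unconventional myosin, fell from a median of 21.8 to 2.44 CPM (log2 fold change -3.11, SE 0.38, edgeR FDR = 0.00265). PTPRN, a receptor-type phosphatase of secretory granules, lay between 8.40 and 55.5 CPM (median 36.8) and then between 0.523 and 3.41 CPM (median 2.29) (log2 fold change -4.02, SE 0.53, edgeR FDR = 0.00377). It did not pass the thresholds in controls (log2 fold change -1.20, SE 0.46, edgeR FDR = 0.0761). ADRA2A, an adrenergic receptor, fell by 3.51 on the log2 scale (SE 0.48, edgeR FDR = 0.00377) and also fell in controls (log2 fold change -1.94, SE 0.45, edgeR FDR = 0.00940).

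The rising genes chosen in the same way were SLC27A2, PRKG2, MGST1, NEFL and LCT. SLC27A2 (ENSCAFG00000015048), which activates and imports long-chain fatty acids, lay between 0 and 2.91 CPM (median 1.81) on days 5+10 and between 4.33 and 261 CPM (median 92.2) on days 20+30 (log2 fold change 6.63, SE 1.11, edgeR FDR = 0.0114). The 3 day 20 samples, at 4.33 to 55.7 CPM, were between the early samples and the 3 day 30 samples, at 129 to 261 CPM. PRKG2, a cGMP-dependent kinase, was at most 0.516 CPM early and lay between 0.856 and 22.4 CPM (median 6.77) late (log2 fold change 5.52, SE 0.94, edgeR FDR = 0.0117). MGST1, a microsomal glutathione transferase, rose from a median of 6.73 to 35.7 CPM without overlap (log2 fold change 2.89, SE 0.49, edgeR FDR = 0.0117). NEFL, a neurofilament gene, rose from a median of 0.718 to 8.83 CPM (log2 fold change 4.65, SE 0.81, edgeR FDR = 0.0123), with day 30 samples at 7.15 to 76.6 CPM. The early levels of PRKG2 and NEFL rest on few reads, and without day 30 replicate 5 their log2 fold changes were 4.88 and 3.71. SLC27A2, PRKG2, MGST1 and NEFL also rose in controls, by 6.04, 5.86, 2.05 and 4.08 on the log2 scale (edgeR FDR = 0.000275, 5.36e-05, 0.00192 and 0.00118).

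The question of which changes persisted under COX2 inhibition was addressed by following the control DEGs in the treated samples. Of the 2774 control DEGs, 2750 were tested in treated samples, and 2424 of these (88.1%) had a fold change of the same sign. Among all 13385 genes tested in both sets the same sign was found for 75.5%. Both thresholds were passed, in the same direction, by 429 of the 2750 control DEGs (15.6%). The share was 303 of 1394 (21.7%) for control DEGs that fell and 126 of 1356 (9.29%) for those that rose, against 3.11% and 1.54% of all genes tested in treated samples. At an unadjusted P under 0.05, 1045 control DEGs had the same direction in treated samples. The median change of the rising control DEGs was 0.81 in controls and 0.51 in treated samples on the log2 scale, and that of the falling ones was -1.22 and -0.89. Control values are those on which these genes were chosen, and are therefore no independent measure of size. Read from the other side, 429 of the 639 treated DEGs (67.1%) were control DEGs in the same direction, 593 had the same sign in controls, 180 were tested but not called there, and 26 were not tested there. Without day 20 replicate 2, 797 control DEGs were called in treated samples in the same direction, and without that sample and day 5 replicate 1 there were 726. Without day 30 replicate 5 the number was 118. It was also moved by more than 1.5 times by leaving out day 5 replicate 1 (251), 2 (180) or 5 (226), day 20 replicate 4 (229), and day 30 replicate 2 (147) or 4 (143).

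The DEGs shared by both sets with the smallest P included PRKG2, SLC27A2, NEFL and SV2B among the rising genes, and L1CAM, GFPT2, CDKN2C, FSTL3 and ITIH4 among the falling ones. SV2B, a glycoprotein of secretory vesicles, was at 0.0702 to 3.88 CPM early, at 0.143 to 80.3 CPM on day 20 and at 119 to 275 CPM on day 30 (log2 fold change 6.27, SE 1.10, edgeR FDR = 0.0123). In 1 day 20 sample SV2B was within the early range, and in the other day 20 samples it was above that range. CDKN2C, an inhibitor of CDK4 and CDK6, lay between 68.6 and 128 CPM (median 109) on days 5+10 and between 22.1 and 44.9 CPM (median 23.7) on days 20+30 of treatment, with no overlap (log2 fold change -1.82, SE 0.26, edgeR FDR = 0.00460), and fell in controls as well (log2 fold change -1.94, SE 0.18, edgeR FDR = 5.36e-05). FSTL3, which binds activin, fell from a median of 65.3 to 1.59 CPM (log2 fold change -5.32, SE 0.72, edgeR FDR = 0.00377). ITIH4, of the inter-alpha-trypsin inhibitor family, was at 303 to 3518 CPM on days 5+10 and at 9.56 to 51.5 CPM on days 20+30 of treatment, and fell (log2 fold change -5.54, SE 0.77, edgeR FDR = 0.00377). For these 9 genes the edgeR interaction P lay between 0.0335 (FSTL3) and 0.921 (SV2B), and no interaction FDR was below 0.620.

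**Figure D2:**
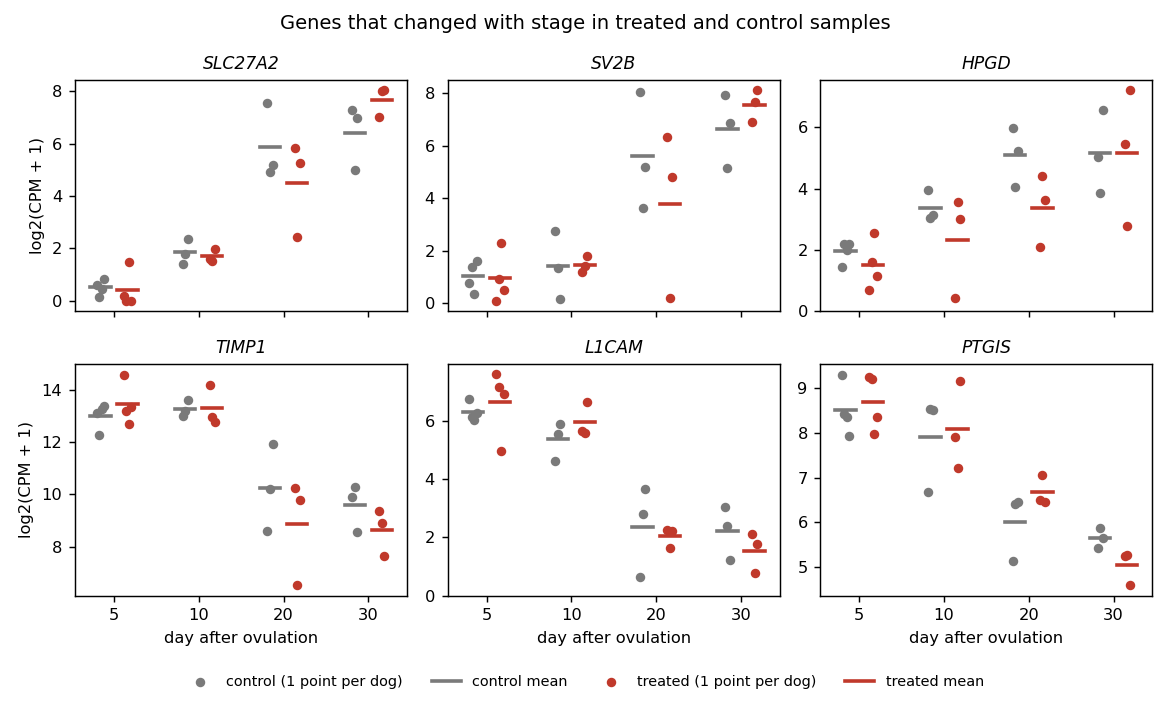
Levels of 6 genes as log2(CPM + 1) (y axis) by day after ovulation (x axis), with 1 point per dog and a bar for the mean of each group of 3 or 4 dogs, in control (gray) and treated samples (red). SLC27A2, SV2B and HPGD are higher and TIMP1, L1CAM and PTGIS lower on day 30 than on day 5 in both sets.

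Gene groups were described through genes with a symbol. Symbols were available mainly for genes that the study had listed as DEGs on these same samples, so the counts of a group are not independent evidence of its direction. Among the 4275 genes tested in treated samples that had a symbol, 444 (10.4%) were DEGs, 138 rising (3.23%) and 306 falling (7.16%), and the median over the 4275 was 0.10. In controls 57.2% of such genes were DEGs, 29.1% rising and 28.1% falling. The counts of each group below are to be read against these shares, and with few genes in a group a count near them is no result about the group. For DESeq2 the shares below are over all genes it tested, and those of genes with a symbol were not computed. With edgeR 4.65% of all genes tested in treated samples were DEGs, against 10.4% of those with a symbol. The DESeq2 shares are therefore a low standard for a group, and an excess over them is not a result about it. The medians over all genes tested were 0.00 in treated and 0.02 in control samples.

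Some of the prostaglandin genes that changed with stage in controls were also called under treatment. Of 14 genes of prostaglandin synthesis and signaling, 1 rose and 2 fell in treated samples, and 2 rose and 7 fell in controls; the 3 treated DEGs were called in both. PTGIS, the prostacyclin synthase, lay between 147 and 605 CPM (median 324) on days 5+10 and between 23.2 and 132 CPM (median 62.3) on days 20+30 of treatment, without overlap (log2 fold change -2.50, SE 0.47, edgeR FDR = 0.0174). It fell in controls as well (log2 fold change -2.53, SE 0.35, edgeR FDR = 0.000544), and the interaction was not significant. AKR1B1, an aldo-keto reductase with PGF2alpha synthase activity, fell from a median of 3027 to 1254 CPM (log2 fold change -2.11, SE 0.62, edgeR FDR = 0.0905). This call was lost in 11 of 15 alternatives, among them the omission of day 20 replicate 3 (-1.87 on the log2 scale, edgeR FDR = 0.107). HPGD, which inactivates prostaglandins, lay between 0.361 and 10.8 CPM (median 2.05) early and between 3.30 and 148 CPM (median 15.9) late, and rose (log2 fold change 3.34, SE 0.92, edgeR FDR = 0.0753). Without day 30 replicate 5 the log2 fold change of HPGD was 2.15 (edgeR FDR = 0.226), and the call was lost in 8 of 15 alternatives. PTGFR, the PGF2alpha receptor, was at 53.8 to 903 CPM on day 20 and at 1356 to 1946 CPM on day 30. Its change over both days did not pass the test in treated samples (log2 fold change 1.19, SE 0.70, edgeR FDR = 0.352), although it did in controls (log2 fold change 1.52, SE 0.28, edgeR FDR = 0.00282). The median of the group was -1.29 in controls and -0.74 in treated samples. The counts were 1 falling gene without day 20 replicate 3, and 1 rising and 4 falling genes without day 20 replicate 2. DESeq2 called 5 of the 14 under treatment, 1 of them as higher (11.8% and 4.03% of all genes it tested).

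Matrix genes and proteases had mostly negative fold changes under treatment, and few passed the edgeR test. Of 23 extracellular matrix genes, 3 fell in treated samples and 15 in controls, and none rose in either; 22 had a negative fold change under treatment, with a median log2 value of -1.37, compared with -1.32 in controls. FN1, encoding fibronectin, lay between 223 and 2125 CPM (median 818) early and between 92.9 and 283 CPM (median 177) late (log2 fold change -2.20, SE 0.51, edgeR FDR = 0.0463), and was not called in controls. COL6A1 fell as well (log2 fold change -2.12, SE 0.62, edgeR FDR = 0.0886), as did LOXL2, which cross-links collagen (log2 fold change -1.62, SE 0.47, edgeR FDR = 0.0896). Each of these 2 calls was lost in 10 of 15 alternatives. The highly counted collagen genes COL1A2, COL3A1 and COL1A1 had fold changes of -0.44, -1.12 and -1.63 on the log2 scale in treated samples and of -1.10, -1.39 and -1.86 in controls; in treated samples none of them was called. On day 20 COL1A2 was at 5158 to 6744 CPM and on day 30 at 965 to 2486 CPM. Of 20 identifiers for matrix proteases and their inhibitors, 3 fell in treated samples and 16 in controls, all 3 in both, and none rose. TIMP1, an inhibitor of metalloproteinases, lay between 6576 and 24353 CPM (median 9280.5) on days 5+10, at 91.2 to 1211 CPM on day 20 and at 199 to 651 CPM on day 30 (log2 fold change -4.35, SE 0.61, edgeR FDR = 0.00424). The ranges did not overlap, and the fall was called in controls too (log2 fold change -2.78, SE 0.49, edgeR FDR = 0.00224). CTSH, a cathepsin, and PLAU, the urokinase activator of plasminogen, fell by 1.34 and 1.05 on the log2 scale (edgeR FDR = 0.0876 and 0.0890), while CTSB, the most counted cathepsin gene, did not pass (log2 fold change -0.82, SE 0.32, edgeR FDR = 0.184). The calls of CTSH and PLAU were lost in 9 and 10 of 15 alternatives. On day 30 alone, 9 matrix genes and 10 of the protease group fell, compared with 7.49% of genes with a symbol. If day 20 replicate 3 was left out, 1 matrix gene and 2 of the protease group fell, and without day 20 replicate 2, 7 and 8. DESeq2 called 8 matrix genes and 8 of the protease group under treatment, none as higher (11.8% of all genes it tested were called).

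Some macrophage genes and few stromal genes were called as lower in mature treated CL by the edgeR test. All 7 macrophage genes measured fell in controls, and the same 7 had a negative fold change under treatment, where 3 passed the test, FCER1G (log2 fold change -1.82, SE 0.37, edgeR FDR = 0.0232), AIF1 (log2 fold change -1.26, SE 0.33, edgeR FDR = 0.0644) and TYROBP (log2 fold change -1.44, SE 0.42, edgeR FDR = 0.0886). FCER1G and TYROBP encode adaptors of activating receptors of myeloid cells. The calls of AIF1 and TYROBP were lost in 8 and 10 of 15 alternatives, and that of FCER1G in none. The most counted macrophage genes, LYZ and C1QA, had log2 fold changes of -1.05 and -1.13 (edgeR FDR = 0.380 and 0.224). With single samples left out, LYZ ranged from -1.25 to -0.28 (without day 5 replicate 2). C1QA ranged from -1.67 to -0.69 (without day 5 replicate 1). The summed level of AIF1 and CD68, the 2 of 4 defining macrophage markers with a symbol, was between 20.9 and 68.3 CPM (median 35.5) on days 5+10 and between 9.67 and 19.9 CPM (median 14.4) on days 20+30 of treatment. These ranges did not overlap. Of 10 fibroblast genes, FAP and THY1 fell in treated samples (-2.08 and -1.43, edgeR FDR = 0.0539 and 0.0814), both also in controls, where 5 of the 10 fell. Their treated calls were lost in 4 and 10 of 15 alternatives. LUM and DCN, matrix proteoglycans abundant in fibroblasts, had log2 fold changes of -1.82 and -0.11 under treatment without passing the test. Of 8 mural and smooth muscle genes, DES, encoding desmin, fell in both sets (log2 fold change -2.50, SE 0.50, edgeR FDR = 0.0217 in treated samples). If day 20 replicate 2 was left out, 5 macrophage, 2 fibroblast and 4 mural genes fell and 1 fibroblast gene rose, and without day 20 replicate 3, 2 macrophage, 1 fibroblast and 1 mural gene fell. Under treatment DESeq2 called 4 macrophage, 4 fibroblast and 4 mural genes (11.8% of all genes it tested). Of these, 1 fibroblast gene was called as higher (4.03% of all genes it tested). The summed level of 5 mural markers, led by TAGLN, varied from 287 to 2565 CPM on days 5+10 and from 333 to 837 CPM on days 20+30 of treatment. Its highest treated values, 1234, 1595 and 2565 CPM, were those of day 5 replicates 1, 2 and 4. In controls it lay between 370 and 562 CPM on days 5+10 and between 382 and 524 CPM on days 20+30. The summed level of 3 fibroblast markers, led by DCN, was between 404 and 3143 CPM on days 5+10 and between 641 and 1936 CPM on days 20+30. Of 2 B cell genes, CD22, a receptor of these cells, fell in both sets (log2 fold change -1.89, SE 0.45, edgeR FDR = 0.0519 in treated samples), while BLK, a kinase of these cells, was at 5.42 CPM or less in every treated sample, had a log2 fold change of 0.31 there (edgeR FDR = 0.859; -0.45 without day 20 replicate 3) and fell in controls.

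Most cell cycle genes had negative fold changes under treatment. Of 34 genes, 27 had a negative fold change, 4 fell and none rose in treated samples (10.4% of genes with a symbol were called there), and 24 fell and 3 rose in controls; the 4 treated DEGs were called in both. The number falling was 2 without day 20 replicate 3, and without day 20 replicate 2, 4 fell and 1 rose. The 4 were CDKN2C, CCND3, TK1 and CDC20. CCND3, a D-type cyclin, lay between 63.2 and 501 CPM (median 226) on days 5+10 and between 4.52 and 88.6 CPM (median 22.6) on days 20+30 (log2 fold change -2.78, SE 0.68, edgeR FDR = 0.0539). TK1, a thymidine kinase of the S phase, fell by 2.37 and CDC20, an activator of the anaphase-promoting complex, by 1.97 on the log2 scale (edgeR FDR = 0.0707 and 0.0836). The calls of TK1 and CDC20 were lost in 8 and 9 of 15 alternatives. CDK4 did not pass under treatment (log2 fold change -0.59, SE 0.33, edgeR FDR = 0.322), and it fell in controls. The replication factor gene GINS2 had a log2 fold change of 0.28 in treated samples and fell by 1.40 in controls (edgeR interaction FDR = 0.342). The median of the group was -0.79 in treated samples and -1.22 in controls, with -0.42 on day 20 and -1.50 on day 30. Of 5 granulosa and theca genes, 3 fell in controls and 1 in treated samples. This was INHA, an inhibin subunit, which fell without overlap of the stages (log2 fold change -2.20, SE 0.53, edgeR FDR = 0.0519), as it did in controls (log2 fold change -1.62, SE 0.48, edgeR FDR = 0.0275). FSHR, the FSH receptor gene, lay between 522 and 2031 CPM (median 664) and then between 249 and 3102 CPM (median 926) (log2 fold change 0.52, SE 0.52, edgeR FDR = 0.585). Under treatment DESeq2 called 7 of the 34 cell cycle genes, none as higher (11.8% of all genes it tested were called). It called 3 of the 5 granulosa and theca genes, 1 of them as higher (4.03% of all genes it tested).

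The rise of cholesterol synthesis genes seen in controls was not called in any of these genes under treatment. Of 11 genes of the pathway, 10 rose in controls, where 29.1% of genes with a symbol and 10.1% of all genes tested rose, and none rose or fell in treated samples, where 10 had a negative fold change. Their median log2 fold change was 1.09 in controls and -0.37 in treated samples. FDFT1, which makes squalene, lay between 109.8 and 782 CPM (median 378) on days 5+10 and between 36.5 and 716 CPM (median 432) on days 20+30 of treatment. The treated stages overlapped (log2 fold change 0.20, SE 0.60, edgeR FDR = 0.866), and in controls FDFT1 rose (log2 fold change 1.74, SE 0.31, edgeR FDR = 0.00239). SQLE, the squalene epoxidase, had a log2 fold change of -0.69 (SE 0.66) in treated and 1.51 (SE 0.38) in control samples, and FDPS, the farnesyl diphosphate synthase, one of -0.46 (SE 0.53) and 1.06 (SE 0.32). The stage by treatment interaction had an unadjusted P under 0.05 for 9 of the 11 genes, compared with 7.33% of all genes tested and 15% of genes with a symbol, but none had an FDR below 0.375. With day 30 alone as the mature stage in both sets, 8 of the 11 had an interaction P under 0.05 (8.57% of all genes tested and 10.9% of genes with a symbol), and with day 20 alone 2 had (9.6% and 21.5%). Without day 20 replicate 3 the median of the group was -0.15, and without day 20 replicate 2 it was -0.57, each time with no call.

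Of the genes of fatty acid, sterol and steroid metabolism, edgeR called 1 of 15, 2 of 8 and 1 of 11 under treatment, where it called 10.4% of genes with a symbol. In controls 14 of 15, 5 of 8 and 8 of 10 were called, where 57.2% of genes with a symbol were. Of 15 genes of lipid droplets and fatty acids, 13 rose and 1 fell in controls, while in treated samples SLC27A2 was the one DEG. SCD, the stearoyl-CoA desaturase, had a log2 fold change of 0.07 in treated and 1.09 in control samples, FADS2 at -0.58 and 1.18, and ACLY, which makes cytosolic acetyl-CoA, at -0.16 and 1.87 (edgeR interaction FDR = 0.288). ACLY lay between 353 and 1286 CPM (median 777) on days 5+10 and between 83.2 and 1373 CPM (median 744) on days 20+30 of treatment, and the ranges overlapped. The median of the group was 0.07 in treated samples and 0.82 in controls. DESeq2 called 1 of the 15 in the interaction, with the lower change in treated samples. Of 8 genes of sterol uptake and control, 4 rose and 1 fell in controls, and 2 fell in treated samples. The 2 were NR1H3, encoding the sterol-sensing liver X receptor alpha, with no overlap between stages (log2 fold change -2.29, SE 0.43, edgeR FDR = 0.0169) and a fall in controls as well (log2 fold change -1.64, SE 0.25, edgeR FDR = 0.000916), and SOAT1, which esterifies cholesterol for storage (log2 fold change -1.73, SE 0.52, edgeR FDR = 0.0979). The call of SOAT1 was lost in 10 of 15 alternatives. INSIG1, which holds back sterol synthesis, had a log2 fold change of -0.10 under treatment and rose by 1.21 in controls. Of 11 genes of steroid hormone synthesis, POR, the electron donor of microsomal P450 enzymes, fell in both sets (log2 fold change -1.47, SE 0.37, edgeR FDR = 0.0584 in treated samples). The edgeR test called no other member under treatment, against 6 rising and 2 falling of 10 in controls. CYP19A1, the aromatase, lay between 66.8 and 714 CPM (median 340.1) on days 5+10, at 113 to 1066 CPM on day 20 and at 989 to 2448 CPM on day 30. It rose by 2.23 in controls and had a log2 fold change of 1.81 under treatment (edgeR FDR = 0.147), and the interaction was not significant (edgeR interaction FDR = 0.986). FDX1 had a log2 fold change of -0.77 in treated samples (edgeR FDR = 0.394), a value that includes the low day 20 sample named above. When day 20 replicate 3 was left out, 1 gene of steroid hormone synthesis rose and none fell, 1 gene of sterol uptake fell, and 2 of the fatty acid group rose. Without day 20 replicate 2 the steroid group had 1 rising and 1 falling gene, and the fatty acid group 2 rising and 1 falling. Under treatment DESeq2 called 3 fatty acid, 2 sterol and 3 steroid genes (11.8% of all genes it tested). Of these, 2 fatty acid and 2 steroid genes were called as higher (4.03% of all genes it tested).

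Endothelial genes that rose with stage in controls were not called as rising under treatment by the edgeR test. Of 12 genes, 7 rose and none fell in controls (29.1% of genes with a symbol rose), and in treated samples none rose and PLVAP fell (3.23% rose and 7.16% fell). The medians were 0.85 in controls and -0.37 in treated samples (-0.66 without day 20 replicate 2 and -0.18 without day 20 replicate 3). VWF, the von Willebrand factor and the most counted of them, had a log2 fold change of -0.94 in treated and 0.39 in control samples, KDR, a VEGF receptor, at -0.11 and 0.89, and CD34 at -0.10 and 1.15. CD34 lay between 77.6 and 434 CPM (median 167) on days 5+10 and between 60.8 and 421 CPM (median 183) on days 20+30 of treatment. PLVAP, a protein of endothelial fenestrae, lay between 3.66 and 50.4 CPM (median 11.4) and then between 0.353 and 1.68 CPM (median 0.946), without overlap (log2 fold change -4.07, SE 0.62, edgeR FDR = 0.00690), and missed the thresholds in controls (log2 fold change -1.43, SE 0.58, edgeR FDR = 0.0888). Without day 5 replicate 5 the treated log2 fold change of PLVAP was -3.40. ESM1, a proteoglycan of endothelial tip cells, had a log2 fold change of -0.96 and 1.31, with the smallest interaction P of the group (edgeR interaction FDR = 0.276). In 7 of the 12 genes the interaction had an unadjusted P under 0.05 (15% of genes with a symbol), with day 30 alone as the mature stage in 8 (10.9%) and with day 20 alone in 1 (21.5%). DESeq2 called 2 of the 12 in the interaction, none as higher in treated samples (1.12% of all genes it tested were called). Under treatment it called 3 of the 12, 1 of them as higher (11.8% and 4.03% of all genes it tested). Leaving out day 20 replicate 2 gave 1 rising and 2 falling endothelial genes in edgeR. Membrane trafficking genes had 2 rising DEGs of 15 in treated samples, SV2B and SH3GL2, an endophilin (log2 fold change 2.74, SE 0.55, edgeR FDR = 0.0217), both also called in controls, where 11 rose. DENND5A and MYH10 had log2 fold changes of 0.15 and 0.35 under treatment and at 0.68 and 0.84 in controls.

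**Figure D3:**
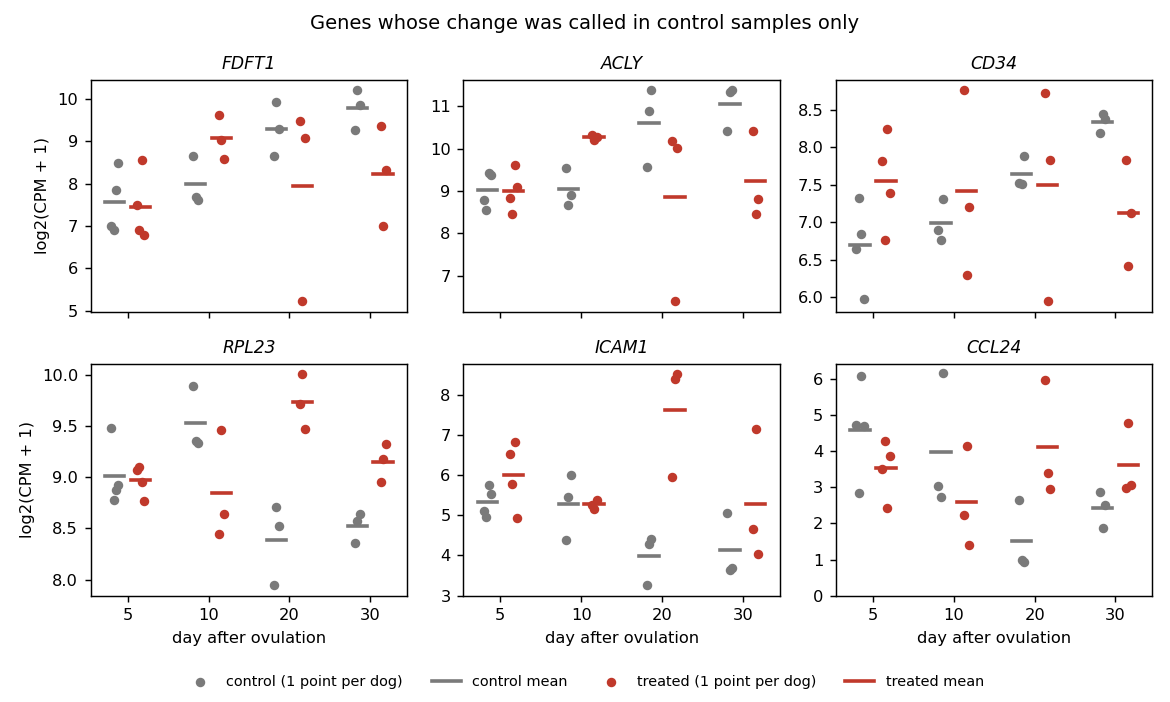
Levels of 6 genes as log2(CPM + 1) (y axis) by day after ovulation (x axis), with 1 point per dog and a bar for the mean of each group of 3 or 4 dogs, in control (gray) and treated samples (red). In controls the day 20 and day 30 means of FDFT1, ACLY and CD34 are above, and those of RPL23, ICAM1 and CCL24 below, the day 5 and day 10 means, and the treated stages overlap for each of the 6 genes.

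Ribosomal protein genes, most of which fell with stage in controls, were not called under treatment. Of 47 identifiers for cytosolic ribosomal proteins, 37 fell in controls, and none was called in treated samples, where 32 had a positive fold change (without day 20 replicate 2, 1 fell). The medians were -0.84 in controls and 0.12 in treated samples, and those of treated day 20 and day 30 were 0.42 and -0.27. The treated median over both days was 0.000247 without day 20 replicate 2 and 0.05 without day 20 replicate 3. RPL23 lay between 348 and 705 CPM (median 495) on days 5+10, at 709 to 1025 CPM on day 20 and at a median of 576 CPM on day 30. Its change was 0.55 in treated and -0.81 in control samples (edgeR interaction FDR = 0.173). RPS4X and RPL19, the most counted, had log2 fold changes of 0.18 and 0.12 under treatment. These genes have many near-identical copies, between which reads can be split, and single values are uncertain. The interaction P was under 0.05 for 33 of the 47, compared with 15% of genes with a symbol, and DESeq2 called 10 of them as higher in the interaction (0.953% of all genes it tested). It was under 0.05 for 40 with day 20 alone as the mature stage and for 8 with day 30 alone, compared with 21.5% and 10.9% of genes with a symbol.

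Few cytokine, adhesion and immediate-early genes were called under treatment by the edgeR test. Of 19 cytokine and chemokine genes, 2 rose and 9 fell in controls, and 1, CCL13, fell in treated samples (log2 fold change -4.75, SE 1.18, edgeR FDR = 0.0548), where it was at 20.7 and 27.0 CPM in 2 day 5 samples and at 1.26 CPM or less in all others. Without day 5 replicate 2 its log2 fold change was -3.91, without a call. CCL24 lay between 1.64 and 18.6 CPM (median 10.4) and between 6.73 and 61.7 CPM (median 8.46) on days 5+10 and 20+30 of treatment (1.03 on the log2 scale, and -3.08 in controls, with edgeR interaction FDR = 0.207). Without day 20 replicate 2, the sample at 61.7 CPM, the treated log2 fold change of CCL24 was 0.23. IL6 lay between 0 and 2.67 CPM (median 0.751) and between 0.116 and 25.5 CPM (median 2.71), with its highest levels, 12.7 and 25.5 CPM, on day 20. The chemokine genes CCL2 and CXCL8 had log2 fold changes of 0.60 and 1.52 under treatment and at -1.10 and 3.19 in controls. The median of the group was 1.33 on day 20 and -0.61 on day 30 of treatment, and -1.15 in controls. ICAM1, an adhesion molecule induced by NF-kB, was at 29.3 to 112 CPM on days 5+10, at 61.0 to 362 CPM on day 20 and at 15.5 to 141 CPM on day 30 (edgeR interaction FDR = 0.238). NFKBIA, the inhibitor of NF-kB, lay between 28.6 and 99.4 CPM (median 72.5) on days 5+10 and between 54.2 and 232 CPM (median 145) on days 20+30 of treatment, without a call. Of 13 genes of NF-kB signaling and adhesion, 1 rose and 5 fell in controls, and under treatment TNFRSF1A, a TNF receptor, was the 1 that fell (log2 fold change -1.17, SE 0.32, edgeR FDR = 0.0709), a call that was lost in 10 of 15 alternatives. Without day 20 replicate 2, 2 cytokine genes fell, and 1 gene of NF-kB signaling and adhesion rose and 3 fell, and without day 20 replicate 3, 1 cytokine gene rose and 1 fell, and no gene of NF-kB signaling was called. The interaction had an unadjusted P under 0.05 for 9 of the 19 cytokine genes and 4 of the 13 of NF-kB signaling and adhesion (15% of genes with a symbol), and DESeq2 called 5 and 4 of them as higher in the interaction (0.953% of all genes it tested). Of 15 immediate-early genes, ATF3 rose under treatment (log2 fold change 1.76, SE 0.51, edgeR FDR = 0.0900), with 154 to 521 CPM on day 20 and 48.3 to 233 CPM on day 30, and 2 others fell in controls. Without day 20 replicate 3 none rose, and without day 20 replicate 2, 4 did. EGR1 and FOS, the most counted of them, had log2 fold changes of 1.38 and 0.83 (edgeR FDR = 0.252 and 0.517), and NR4A2, a nuclear receptor, at 2.46 (edgeR FDR = 0.148). NR4A2 was at 1.45 without day 20 replicate 3 and at 3.35 without day 5 replicate 4, and was called in 3 of 15 alternatives. In the interaction with day 20 alone as the mature stage, 13 of the 15 had a P under 0.05 (21.5% of genes with a symbol), with day 30 alone none had (10.9%), and with both days 5 had (15%). Under treatment DESeq2 called 5 cytokine, 3 NF-kB and adhesion and 5 immediate-early genes (11.8% of all genes it tested). Of these, 2, 1 and 4 were called as higher (4.03% of all genes it tested).

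Oocyte genes, which belong to cells outside the CL, were not called under treatment by the edgeR test. Each of the 11 had a positive fold change (median 2.30; without day 20 replicate 2, 1 rose), compared with a median of -2.75 in controls, where 4 of 10 fell. The interaction had an unadjusted P under 0.05 for all 11, compared with 15% of genes with a symbol, and no FDR below 0.212. DESeq2 called 6 of the 11 as higher on days 20+30 of treatment and 6 as higher in the interaction, compared with 4.03% and 0.953% of all genes it tested. BMP15 lay between 0 and 25.9 CPM (median 5.23) on days 5+10, at 40.3 to 84.2 CPM on day 20 and at 1.84 to 34.8 CPM on day 30. ZP2, of the zona pellucida, had a treated log2 fold change of 2.30 (edgeR FDR = 0.161), GDF9, a growth factor of the oocyte, at 1.82 (edgeR FDR = 0.137) and PNLDC1, which trims piRNA, at 2.22 (edgeR FDR = 0.163). FST, the follistatin gene of the granulosa list, was at 32.2 to 251 CPM on day 20 and at 8.40 to 19.1 CPM on day 30 (edgeR interaction FDR = 0.212). The part of the oocyte and follicle signal in the groups described above was not tested.

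**Figure D4:**
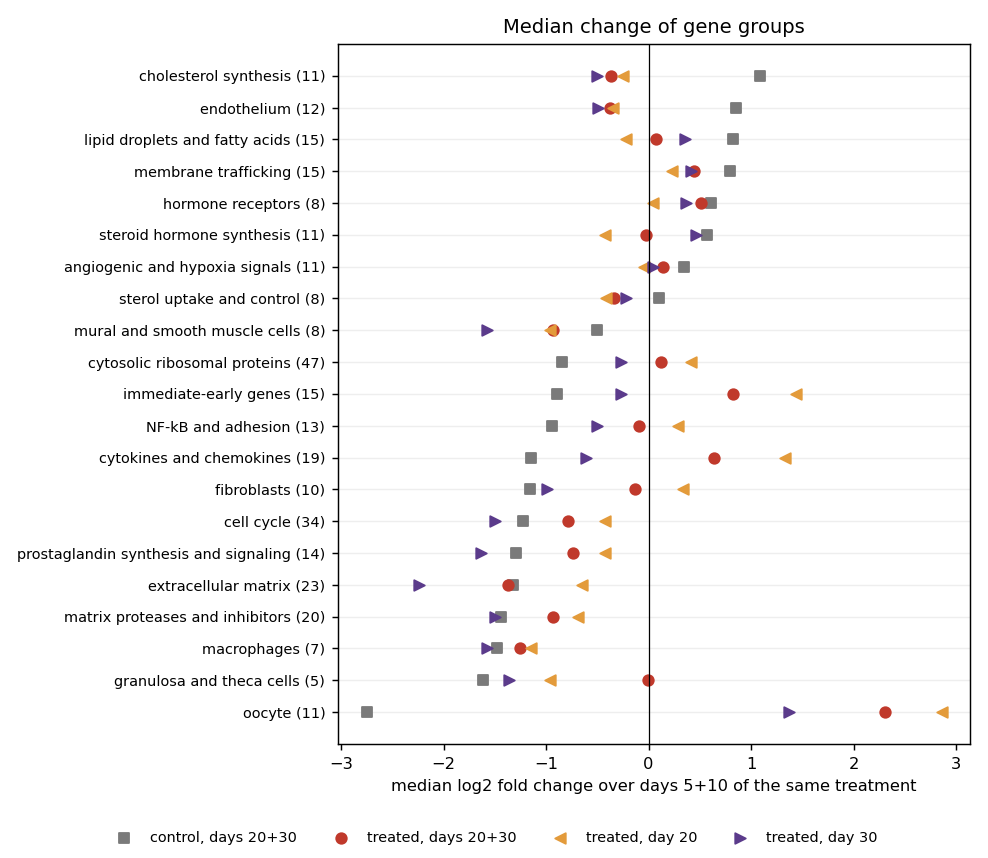
Median log2 fold change over days 5+10 of the same treatment (x axis) for each gene group (y axis, with the number of genes tested in treated samples), for control and treated samples of days 20+30 and for treated day 20 and day 30 apart. Cholesterol synthesis, at 1.09 in controls, is at -0.37 in treated samples, and the cytokine group is at 1.33 on treated day 20 and at -0.61 on treated day 30.

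The mature stage of treatment was also described by day. Compared with days 5+10, day 30 of treatment had 767 DEGs of 13942 genes tested (5.5%), 332 rising (2.38%) and 435 falling (3.12%), and day 20 had none (0%), although 1515 genes (10.9%) had an unadjusted P under 0.05 and DESeq2 called 479. Without day 20 replicate 2, edgeR called 220 genes on day 20, and up to 6 without another single sample (6, 2, 1 and 1 without day 20 replicates 3 and 4, day 5 replicate 4 and day 30 replicate 4). The number on day 30 was 1381 without day 20 replicate 2, and 1194 and 1216 without day 10 replicates 4 and 5. It was 362, 494 and 470 without day 5 replicates 2, 4 and 5, 505 without day 20 replicate 4, and 266, 108 and 101 without day 30 replicates 2, 4 and 5. Of the 2750 control DEGs tested, 1967 had the control direction on day 20 and 2564 on day 30, and 509 were called on day 30 in that direction. The median change of rising control DEGs was 0.19 on day 20 and 0.74 on day 30, and that of falling ones -0.63 and -1.35. The 2 days share the early samples, and the difference between them was not tested.

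An index of maturation, the mean log2 CPM of the 1369 rising minus that of the 1405 falling control DEGs, placed each treated sample on the control scale. It is a description, since its genes were chosen in controls. Treated samples had -1.08, -0.47, 0.38 and -0.09 on day 5 (replicates 1, 2, 4 and 5) and 0.42, 0.82 and 0.94 on day 10 (replicates 1, 4 and 5). On day 20 they had 0.61, 0.78 and 1.36 (replicates 2, 3 and 4), and on day 30 2.22, 2.43 and 2.73 (replicates 2, 4 and 5). Controls lay between -0.10 and 0.62 on days 5+10 and between 2.18 and 3.31 on days 20+30. The treated samples of day 30 thus lay inside the range of mature controls, and those of day 20 below it, with 2 of the 3 inside the range of the treated samples of day 10.

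**Figure D5:**
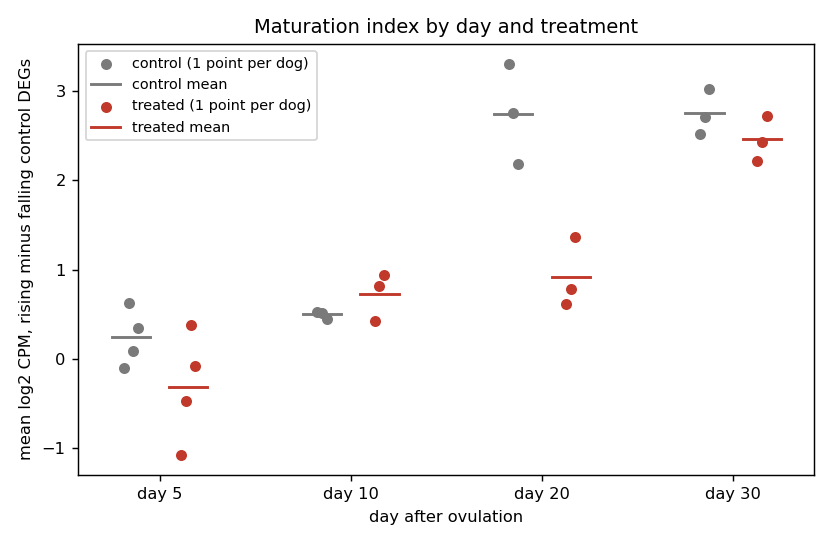
Maturation index (y axis, mean log2 CPM of rising minus falling control DEGs) by day after ovulation (x axis), with 1 point per dog and a bar for the mean of each group of 3 or 4 dogs, in control (gray) and treated samples (red). Treated day 20 samples lie between 0.61 and 1.36, below the mature controls (2.18 to 3.31), and treated day 30 samples between 2.22 and 2.73.

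Whether the change itself differed between treated and control dogs was tested with the stage by treatment interaction over all 26 samples. Of 13865 genes none was a DEG by the edgeR test (0%; smallest FDR 0.113), and 1016 (7.33%) had an unadjusted P under 0.05. DESeq2 called 155 genes (1.12% of the genes it tested), 132 with the higher and 23 with the lower change in treated samples, and 88 of these were control DEGs in edgeR. With single samples left out edgeR called 24 and 9 genes (without day 30 treated replicates 4 and 5), 22, 6 and 3 (without day 5 control replicates 3 and 5 and day 30 control replicate 2), 11 and 4 (without day 10 treated replicates 4 and 5), and 7 and 1 (without day 5 treated replicates 1 and 4). By the edgeR test with all samples, no control DEG was shown to change differently under treatment, and by DESeq2 these 88 were.

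The control DEGs with the smallest interaction P were, among those that rose in controls, EPB41L1, SLC4A8, ITPR3, LRRC8C and PCDHGB1. EPB41L1, a membrane skeleton protein, lay between 67.0 and 126 CPM (median 109) on days 5+10 and between 37.9 and 129 CPM (median 90.1) on days 20+30 of treatment, whereas in controls it rose from a median of 83.7 to 162 CPM (edgeR interaction FDR = 0.238). LRRC8C, a subunit of volume-regulated anion channels, had a log2 fold change of -0.05 under treatment and rose by 0.97 in controls (edgeR interaction FDR = 0.256). ITPR3, an inositol trisphosphate receptor, had a log2 fold change of -1.04 and rose by 0.70 in controls (edgeR interaction FDR = 0.238), and SLC4A8, a bicarbonate transporter, at -0.34 against 0.92 (edgeR interaction FDR = 0.238). PCDHGB1 belongs to a protocadherin cluster whose members share exons, so its counts are uncertain (-0.62 and 0.89). Each of these genes gained the interaction call in 1 of 15 alternatives.

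Among those that fell in controls, the smallest interaction P was found for C6orf52, ZAR1, GLT8D2, EYA1 and CUX2. GLT8D2, a putative glycosyltransferase, lay between 9.48 and 27.1 CPM (median 15.2) on days 5+10 and between 20.6 and 42.2 CPM (median 27.7) on days 20+30 of treatment, and in controls it fell (log2 fold change -0.66, SE 0.15, edgeR FDR = 0.00730, and edgeR interaction FDR = 0.113). ZAR1, an oocyte factor, was at 0 to 1.62 CPM early and at 0 to 3.21 CPM late under treatment, and at no more than 0.0627 CPM in mature controls, so that its fold rests on few reads. C6orf52, EYA1 and CUX2 were called in both sets with opposite signs, as was SHISA2, which was named after its values were seen. EYA1, a transcriptional coactivator, was at 0 to 0.751 CPM early and 0.213 to 3.84 CPM late under treatment (log2 fold change 2.62, SE 0.74, edgeR FDR = 0.0816) and fell in controls (log2 fold change -1.98, SE 0.56, edgeR FDR = 0.0240). CUX2, a homeobox gene, rose under treatment (log2 fold change 2.68, SE 0.78, edgeR FDR = 0.0886), with 1.49 to 8.94 CPM on day 20 and 0.212 to 0.640 CPM on day 30, and fell in controls (log2 fold change -1.70, SE 0.48, edgeR FDR = 0.0230). C6orf52 and SHISA2 rose by 2.01 and 1.73 under treatment (edgeR FDR = 0.0654 and 0.0863) and fell in controls by 1.93 and 1.42 (edgeR FDR = 0.0157 and 0.0286). In all 4 the treated stages overlapped. The treated calls of C6orf52, EYA1, CUX2 and SHISA2 were lost in 7, 10, 10 and 11 of 15 alternatives, and without day 20 replicate 3 the edgeR FDR of CUX2 was 0.256. C6orf52, EYA1, CUX2 and SHISA2 were the only genes called in both sets with opposite signs, against 429 called with the same sign.

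Some genes changed with stage under treatment and not detectably in controls. Of the 639 treated DEGs, 98 had a P of 0.05 or more in controls, 47 rising and 51 falling. Of the falling ones, ILDR2, a membrane protein of the immunoglobulin family, lay between 44.6 and 119 CPM (median 58.4) on days 5+10 and between 8.94 and 29.6 CPM (median 19.4) on days 20+30 of treatment, with no overlap (log2 fold change -1.77, SE 0.32, edgeR FDR = 0.0128). In controls its median was 62.0 and 61.5 CPM (edgeR interaction FDR = 0.182). CDO1, the cysteine dioxygenase, lay between 289 and 1927 CPM (median 700.5) early and between 52.6 and 424 CPM (median 211) late (log2 fold change -2.16, SE 0.48, edgeR FDR = 0.0376), with a change of -0.15 in controls (edgeR interaction FDR = 0.310). COBL, an actin nucleator, fell as well (log2 fold change -3.73, SE 0.82, edgeR FDR = 0.0338); a single day 5 sample reached 47.9 CPM, and the other early samples were at 9.69 CPM or less. Without that sample, replicate 5, the log2 fold change of COBL was -2.73 (edgeR FDR = 0.0580), and without day 30 replicate 5 the call was lost (edgeR FDR = 0.101). FAM19A4, a secreted peptide, and PCSK5, a proprotein convertase, fell by 2.24 and 1.24 on the log2 scale (edgeR FDR = 0.0281 and 0.0402).

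Of the rising ones, LCT, the lactase gene, was at 0.114 to 0.562 CPM on days 5+10 and at 0.927 to 3.31 CPM on days 20+30 of treatment, without overlap (log2 fold change 2.99, SE 0.53, edgeR FDR = 0.0123), and at 0 to 1.12 CPM in mature controls (edgeR interaction FDR = 0.238). TSPAN8, a tetraspanin, lay between 1.71 and 16.5 CPM (median 8.87) early and between 27.0 and 112 CPM (median 54.9) late, again without overlap (log2 fold change 2.84, SE 0.53, edgeR FDR = 0.0166), and had a log2 fold change of 0.60 in controls (edgeR FDR = 0.396). TNIP3, which binds an inhibitor of NF-kB signaling, KIAA1324, a membrane protein, and MAP7D2, a microtubule binder, rose by 2.26, 2.90 and 2.29 (edgeR FDR = 0.0489, 0.0519 and 0.0654), each with overlapping stages. Without day 30 replicate 4 the log2 fold change of KIAA1324 was 2.05 (edgeR FDR = 0.137). In none of these 10 genes did the interaction pass an FDR of 0.1 in edgeR, while DESeq2 called it for ILDR2, COBL, LCT and KIAA1324.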

How the data were processed

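Poly-A RNA of 26 CL was sequenced with single-end reads. Per the labels and methods, the authors aligned the reads with STAR to CanFam3.1, counted them per Ensembl gene with featureCounts and deposited raw counts, 1 file per dog, with 19856 genes listed. Tool versions are not given in the sources used here, and samples that the authors removed were not used here.

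From the counts, differential expression was tested with edgeR 4.0.16 (quasi-likelihood F-test, TMM factors) in R 4.3.3, separately in treated and control samples, with no covariate. Genes needed a mean of at least 10 reads in 1 group of a comparison, and DEGs had P under 0.01 and FDR under 0.1 (Benjamini-Hochberg). The interaction and the single days (treated samples, 1 fit) used the same test. DESeq2 1.42.0, limma 3.58.1 (voom), RLE factors, other thresholds and filters, and omitted samples were alternatives. Log2 CPM used a prior count of 2. Scripts were tested on simulated data. P-values measure the spread between the dogs kept after the authors removed outliers, which may be narrower than that of all dogs sequenced.

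Symbols came from the study's supplementary lists of DEGs, matched by Ensembl ID (4315 genes), and neither fold changes nor P-values of those lists were used. Genes were named by rules: the 5 smallest P in each direction among treated DEGs without overlap of stages, among DEGs of both sets, among control DEGs by interaction P, and among treated DEGs with P of 0.05 or more in controls, plus the most counted and lowest-P members of each gene list; a few genes that these rules name are not reported here. Comparisons, members and lists were chosen with earlier results of these data known.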

Additional observations from a re-analysis of the deposited data

Results flagged for a closer look

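Single samples lay far from the others of their stage in 17 of 254 groups of 6 or 7 treated values (6.69%), where chance gives about 5% of groups. In these, the gap to the nearest other sample exceeded the critical share of the whole range in Dixon's test. For genes and summed markers the test used log2 CPM with a small offset, so the rule need not hold on the CPM printed here. For the other measures it used the values as they are. Day 20 replicate 3 was the lowest mature sample for 7 genes. In it FDX1 was at 38.0 CPM (others 662 to 1267 CPM), SCD at 119 CPM (866 to 2009.6 CPM), EDNRB at 23.8 CPM (384 to 1359 CPM), AKR1B1 at 101 CPM (621 to 1598 CPM), DENND5A at 178 CPM (367 to 546 CPM), EPB41L1 at 37.9 CPM (82.0 to 129 CPM) and SLC4A8 at 2.90 CPM (6.07 to 9.13 CPM). This library also had the lowest summed granulosa markers (279 CPM) and the lowest share of reads in its 10 most counted genes (8.60%) of the treated samples.

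Day 30 replicate 4 was the lowest mature sample for oocyte transcripts, with GDF9 at 3.53 CPM (others 19.2 to 46.6 CPM), ZP2 at 0.494 CPM (15.6 to 74.9 CPM), PNLDC1 at 0.212 CPM (10.3 to 31.2 CPM), ZAR1 at 0 CPM (1.56 to 3.21 CPM) and a summed oocyte level of 5.93 CPM (74.0 to 255 CPM). Day 20 replicate 2 had the highest C1QA level of the mature samples (106 CPM, others 22.2 to 40.1 CPM) and the lowest LYZ level (12.4 CPM, others 53.7 to 105 CPM). In early samples, COBL was highest in day 5 replicate 5 (47.9 CPM, others 3.15 to 9.69 CPM), the share of the 10 most counted genes in day 10 replicate 4 (32.3%, others 12.7% to 20.0%) and the share of ribosomal protein genes in day 5 replicate 1 (6.10%, others 3.21% to 4.29%).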

How the results depend on the processing

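With DESeq2, 1620 treated, 875 shared, 479 day 20, 1938 day 30 and 155 interaction DEGs were called and the treated ones held 638 of the 639 of edgeR. With FDR under 0.05 alone there were 193 treated, 155 shared and 252 day 30 DEGs. All 26 samples in 1 fit gave 1877 treated and 1553 control DEGs, and limma voom 305 treated DEGs. Without a filter on low counts 20 genes were called on day 20. Alternatives chosen after seeing the data included day 30 alone as the mature stage (1124 treated, 684 shared, 1721 control and 0 interaction DEGs). Day 20 alone as the mature stage in the interaction (0 DEGs) was also chosen then. The others were omission of day 5 replicate 1 and day 20 replicate 2 together (1672 treated and 726 shared DEGs), and omission of the 10 most counted genes of each sample (3 interaction DEGs). With 1 sample left out at a time, the counts were 151 to 1989 (treated), 2166 to 4133 (control), 118 to 797 (shared), 0 to 220 (day 20), 101 to 1381 (day 30) and 0 to 24 (interaction). The stage distance of treated samples kept p at 0.0344 or less under each alternative run. The cause of these shifts was not tested.

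Each bitch gave 1 library, so the same animal number on different days is not the same dog. Deviations of same-numbered treated samples correlated from -0.597 to 0.685 (mean 0.107 over 13 pairs, -0.0119 over 50 other pairs), a spread too wide to decide on pairing. With the number as a replicate block, 383 treated, 1806 control, 221 shared, 1025 day 30, 0 day 20 and 0 interaction DEGs were called.

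For the genes named, 1595 of 1905 alternative values kept direction and call, 214 lost the call and 61 gained it. All losses came from leaving out single treated samples, as did 35 reversals of values near 0 without a call. The treated log2 fold change then ranged across 0 for EPB41L1 (-0.26 to 0.0208), LRRC8C (-0.16 to 0.0558), ACLY (-0.43 to 0.0789), BLK (-0.45 to 0.88), CCL2 (-0.20 to 0.97), CD34 (-0.49 to 0.19), DCN (-0.47 to 0.0721), FDFT1 (-0.0575 to 0.53), INSIG1 (-0.54 to 0.22), KDR (-0.29 to 0.0763), MYL9 (-0.43 to 0.00888), RPL19 (-0.025 to 0.27), SCD (-0.18 to 0.31) and PRLR (-0.0991 to 0.19). Without a change of sign, it ranged from -0.81 to -0.0538 for FDPS, from -1.04 to -0.14 for FADS2 and from 0.0667 to 0.83 for FSHR. Scaling with RLE factors moved the median of all genes by -0.00803 on the log2 scale in treated samples and reversed no group's median.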

Other observations

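Of 7 hormone receptor genes tested in controls 3 rose, and of 8 tested in treated samples none was called (10.4% of genes with a symbol were), where 7 had a positive log2 fold change (median 0.51). PGRMC1, a progesterone receptor membrane component, lay between 239 and 498 CPM (median 440.1) on days 5+10 and between 208 and 915 CPM (median 582) on days 20+30 of treatment (log2 fold change 0.44, SE 0.32, edgeR FDR = 0.450), and it rose in controls (log2 fold change 0.79, SE 0.15, edgeR FDR = 0.00329). ESR1, the estrogen receptor alpha, was not called in either set (log2 fold change 1.05, SE 0.53, edgeR FDR = 0.281 in treated samples). EDNRB, an endothelin receptor, lay between 389.5 and 3555 CPM (median 1636) and then between 23.8 and 1359 CPM (median 549) (log2 fold change -1.37, SE 0.68, edgeR FDR = 0.274). Of 11 angiogenic and hypoxia genes, 3 rose and 1 fell in controls (57.2% of genes with a symbol were called there), and none was called under treatment (median 0.14). HIF1A and EPAS1, the oxygen-regulated transcription factor subunits, had log2 fold changes of -0.31 and -0.74 in treated samples (edgeR FDR = 0.774 and 0.316).

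None of 3 T and NK cell genes was called in either set. GZMB, a granzyme, lay between 0.0571 and 43.3 CPM (median 1.33) early and between 0.814 and 2.56 CPM (median 1.48) late under treatment (log2 fold change -2.29, SE 1.07, edgeR FDR = 0.253). ALAS2, the 1 erythrocyte gene with a symbol, fell in controls (log2 fold change -3.45, SE 0.97, edgeR FDR = 0.0231) and was not called in treated samples (log2 fold change 1.25, SE 0.81, edgeR FDR = 0.391), and the interaction had an unadjusted P of 0.00143 (edgeR FDR = 0.238). DESeq2 called this interaction as higher (0.953% of all genes it tested).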
